A study of Mus musculus with 4 samples.

Results

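The miR-183/96/182 cluster is a set of 3 microRNAs (miRNAs) encoded side by side on mouse chromosome 6: miR-183-5p, miR-96-5p and miR-182-5p. The members were taken by name, as the 5p arm of each hairpin, and all 3 were found among 1152 listed entries, of which 1079 carry miRNA names. Libraries of small RNA, 18 to 30 nucleotides long, came from aortas of wild type C57BL/6 mice, a common inbred laboratory strain, at an age labelled 12-week. The series models the vascular calcification of chronic kidney disease (CKD), with 2 libraries labelled Sham and 2 labelled CKD, each pooled from 4 samples. In the labelled model the poles of the left kidney were removed, the right kidney was removed after 1 week of recovery, and a diet with 2% phosphate and water with 0.45% NaCl followed for 4 weeks. The same treatment text stands on both groups, so the handling of the Sham mice is unknown from these sources. No label says which separate animals stand behind the 2 pools of a group, so p-values here speak only of the spread among the libraries, which may be technical.

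The cluster is made as 1 long precursor transcript that is cut into separate hairpins, so its members share a promoter but can still differ in processing and stability. It is best known from sensory organs: photoreceptors, olfactory cells and the hair cells of the inner ear express it strongly, and mutations in the seed of miR-96 cause progressive hearing loss in humans and mice. It is also found in epithelial cells, in many carcinomas and in activated lymphocytes, where miR-182 represses the transcription factor Foxo1. In vascular smooth muscle cells, miR-96 has been described as a repressor of Trib3, a component of bone morphogenetic protein signalling.

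The mature sequences are shown because the members are close relatives with unequal target sites. They were read from RefSeq (GRCm38.p6), where all 3 members matched by name, and capitals mark the seed, bases 2 to 8 from the 5′ end, which pairs with target messages.
miR-183-5p: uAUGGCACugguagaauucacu
miR-96-5p: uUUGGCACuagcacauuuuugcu
miR-182-5p: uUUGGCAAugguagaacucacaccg
No pair of members had the same seed. Counted from the 5′ end, the seed of miR-96-5p differs from that of miR-183-5p by A2U, and the seed of miR-182-5p differs from that of miR-96-5p by C8A. Over the first 22 bases, miR-183-5p and miR-182-5p were identical at 18 positions, with the differences A2U, C8A, U17C and U22A, whereas miR-183-5p and miR-96-5p were identical at 13. Of all mouse mature miRNAs in the table, miR-1271-5p alone shared a member's seed, that of miR-96-5p. It had 0 and 2 reads in Sham, against 0 and 1 in CKD, so miR-96-5p made up nearly all reads with this seed.

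All members lie on the minus strand of chromosome 6 in GRCm38.p6. miR-183-5p lies at chr6:30169711-30169732, miR-96-5p at chr6:30169506-30169528 and miR-182-5p at chr6:30165962-30165986. The Mir183 and Mir96 hairpins are 116 bases apart, and Mir182 follows 3453 bases further along the transcript. RefSeq places all 3 hairpins within the span of the long noncoding RNA gene Mirc35hg (chr6:30158640-30174125, minus strand). In GENCODE M21 on the same build the hairpins overlap no gene but their own, and the lincRNA Rncr4 lies nearby on the plus strand (chr6:30172893-30175126). Whether a hairpin falls in an exon or an intron of Mirc35hg was not analysed here.

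The window around the RefSeq start of Mirc35hg, from 250 bases before to 50 after it (chr6:30174076-30174375, minus strand), is shown because the 3 members are thought to be transcribed from this gene. Capitals mark matches to a pair of common promoter motifs, each searched on both strands. The first is the CCAAT box, spelled CCAAT. The other is the GC box, which Sp1 family factors are known to bind, spelled GGGCGG.
Mirc35hg promoter: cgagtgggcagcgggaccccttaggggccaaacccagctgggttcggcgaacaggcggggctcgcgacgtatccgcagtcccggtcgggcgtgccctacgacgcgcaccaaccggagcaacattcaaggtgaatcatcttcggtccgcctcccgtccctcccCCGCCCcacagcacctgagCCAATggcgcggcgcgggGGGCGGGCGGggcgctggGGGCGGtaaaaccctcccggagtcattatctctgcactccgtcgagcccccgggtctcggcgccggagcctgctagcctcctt
This window held 1 match of CCAAT and 4 of GGGCGG, a pair of which overlap each other, and 0 of TATAAA. Among 32851 promoter windows of the same length, 37.4% held CCAAT, 35.7% held GGGCGG and 13.6% held TATAAA. It was rich in CpG, with 35 CpG dinucleotides against a median of 7 over all windows. These matches describe the letters only, and no binding or transcription of Mirc35hg was measured.

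The cluster was a minor part of the aortic miRNA pool. The recovered library totals ranged from 16658810 to 17532748 reads, and the 3 members together had 86 and 209 reads in Sham, against 647 and 994 in CKD. The smooth muscle miRNA miR-143-3p filled the libraries instead, with 79.8% and 72.5% of reads in Sham and 41.1% and 40.8% in CKD. Levels are given in CPM, counts per 1000000 reads of the listed entries, as deposited. Each library sums to a fixed total, so all other entries together share what miR-143-3p does not take, and that remainder was larger in both CKD libraries. The second scale therefore divides the CPM by TMM factors (trimmed mean of M-values), so as to remove the change that most entries have in common. In pooled tissue, fewer cells of a type and less RNA per cell cannot be told apart.

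miR-182-5p was the most read member in every library. Its levels were 2.85 CPM (50 reads) and 7.23 CPM (122 reads) in Sham, against 20.08 CPM (352 reads) and 31.21 CPM (520 reads) in CKD. Both CKD libraries stood above both Sham libraries, as for 91.2% of the 479 entries with a mean of at least 1 CPM. The lowest CKD value was 2.78 times the highest Sham value. Among the 1152 entries its rank by level moved from 294 and 250 in Sham to 236 and 197 in CKD.

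miR-183-5p, the member nearest to the start of the transcript, showed the widest gap between the groups. Its levels were 1.08 CPM (19 reads) and 2.43 CPM (41 reads) in Sham, and 9.41 CPM (165 reads) and 17.17 CPM (286 reads) in CKD. The lowest CKD value was 3.87 times the highest Sham value, in the order of groups found for 91.2% of the 479 entries. The ranks were 362 and 338 in Sham and 304 and 240 in CKD. At this depth the exact 95% interval of the first Sham library ran from 0.653 to 1.69 CPM and that of the second CKD library from 15.2 to 19.3 CPM. Such intervals cover counting error only, since no molecular identifiers are described.

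miR-96-5p, the member whose seed is mutated in hereditary deafness, was read about as often as miR-183-5p in Sham. It had 0.97 CPM (17 reads) and 2.73 CPM (46 reads) in Sham, and 7.41 CPM (130 reads) and 11.29 CPM (188 reads) in CKD. Both CKD libraries again stood above both Sham libraries, as for 91.2% of the 479 entries, with the lowest CKD value 2.71 times the highest Sham value. The order of miR-183-5p and miR-96-5p differed between the Sham libraries, and miR-183-5p was the higher of them in both CKD libraries. miR-182-5p lay above both mates in all 4 libraries. Adaptor ligation captures some sequences better than others, so this is an order of reads rather than of molecules.

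**Figure D1:**
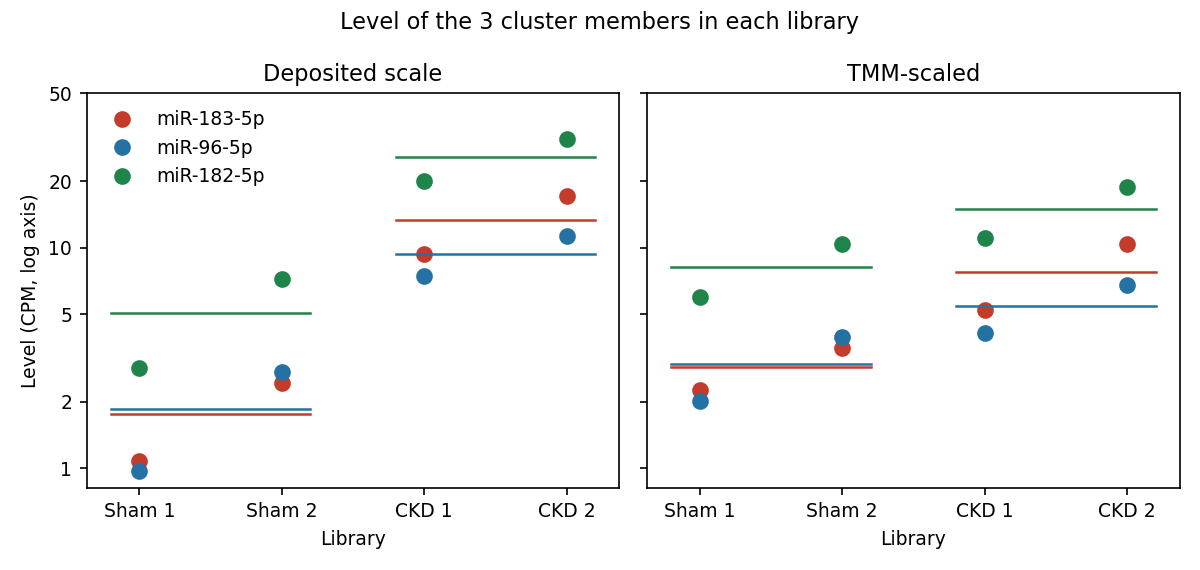
Level of each member in each library, in CPM on a log axis, as deposited (left) and divided by the TMM factor (right); points are libraries and lines are group means of 2 libraries. On the left all CKD points of a member lie well above its Sham points. On the right the lowest CKD point nearly meets the highest Sham point for miR-96-5p and miR-182-5p, while their group means stay apart.

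All 3 members rose in CKD on the deposited scale, where most of the pool did as well. miR-183-5p went from 1.75 ± 0.955 to 13.3 ± 5.49 CPM (SD, n = 2), a ratio of means of 7.57. On the log2(CPM + 1) scale, which understates the change of low entries, its difference was 2.36 (SE 0.36, limma adjusted p = 7.5e-04). For miR-182-5p the mean went from 5.04 ± 3.10 to 25.6 ± 7.87 CPM (SD, n = 2), and the log2 difference was 2.21 (SE 0.39, limma adjusted p = 0.0011). The level of miR-96-5p went from 1.85 ± 1.24 to 9.35 ± 2.74 CPM (SD, n = 2), which is 1.91 on the log2 scale (SE 0.36, limma adjusted p = 0.0013). These 3 calls stand against 82.9% of the 479 tested entries called higher, and 91.2% of tested entries had both CKD libraries above both Sham libraries. The median log2 difference of all tested entries was 1.34, and the members ranked 16, 24 and 64 among them (miR-183-5p, miR-182-5p and miR-96-5p).

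With the shared shift taken out, the members still lay above 0, and 0 of 3 passed the test by limma, edgeR or DESeq2. Without adjustment 1 of the 3, miR-183-5p, had a p under 0.05 by each of these tools, as did 25.9% of the 479 tested entries by limma, 24.4% by edgeR and 25.3% by DESeq2. miR-183-5p had TMM-scaled levels of 2.26 and 3.49 CPM in Sham, against 5.20 and 10.3 CPM in CKD, and its log2 difference was 1.13 (SE 0.36, limma adjusted p = 0.14). Values for miR-182-5p were 5.95 and 10.4 CPM in Sham, against 11.1 and 18.8 CPM in CKD, and the log2 difference was 0.80 (SE 0.36, limma adjusted p = 0.26). For miR-96-5p they were 2.03 and 3.92 CPM in Sham, against 4.10 and 6.80 CPM in CKD, and the log2 difference was 0.71 (SE 0.34, limma adjusted p = 0.28). On this scale 1.88% of tested entries were called higher and 5.85% lower. The CKD libraries stayed above the Sham libraries for all 3 members, as for 28% of tested entries, but the lowest CKD value exceeded the highest Sham value by a factor of only 1.04 for miR-96-5p and 1.07 for miR-182-5p, against 1.49 for miR-183-5p. The ranks among the 479 were 18, 38 and 47 (miR-183-5p, miR-182-5p and miR-96-5p).

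These TMM-scaled differences leaned on single libraries. Without the first Sham library they were 0.92 (miR-183-5p), 0.44 (miR-182-5p) and 0.36 (miR-96-5p), and without the second CKD library 0.67, 0.43 and 0.38. Leaving out the second Sham library raised that of miR-96-5p to 1.09. With each library's total counted without miR-143-3p, in place of TMM, the differences were 1.34, 1.03 and 0.91, none past the threshold (limma adjusted p = 0.074, 0.12 and 0.14), and the median of all tested entries was 0.22.

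**Figure D2:**
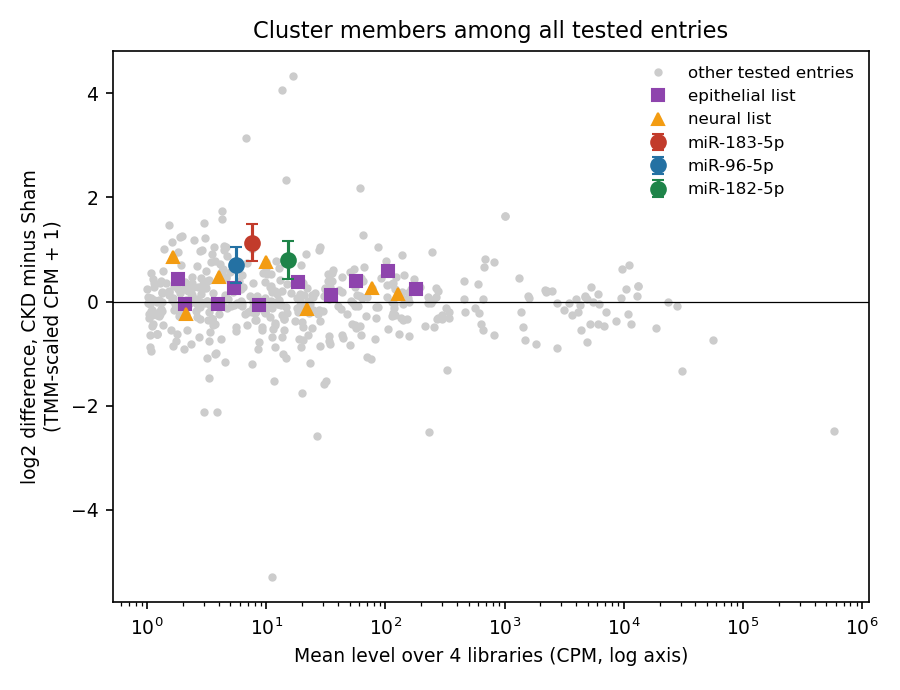
Difference between CKD and Sham on the log2 scale of TMM-scaled CPM + 1 (vertical axis) against the mean level in CPM over 4 libraries (log axis) for the 479 tested entries; bars on the members are standard errors from limma, squares are the epithelial list and triangles the neural list. The 3 members lie at 1.13, 0.80 and 0.71, in the upper part of the entries of like level and within the range of the rest.

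Libraries of the same group also differed, and the members shifted together there. The second Sham library had 2.25 times the CPM of the first for miR-183-5p, 2.81 times for miR-96-5p and 2.54 times for miR-182-5p. In CKD the second library had 1.82, 1.52 and 1.55 times the CPM of the first for the same members. After TMM scaling these ratios were 1.55, 1.94 and 1.75 in Sham and 1.99, 1.66 and 1.69 in CKD. So the second library of each group was the higher one for every member on both scales, while the median TMM-scaled difference of all tested entries between libraries of a group was -0.00 in Sham and -0.02 in CKD on the log2 scale. The summed cluster had 10.2 and 17.8 TMM-scaled CPM in Sham, against 20.4 and 35.9 in CKD. Its mean went from 14.0 ± 5.35 to 28.2 ± 11.0 (SD, n = 2), a factor of 2.01. The exact two-sided permutation p of the sum was 0.333, the smallest that 2 against 2 libraries allow.

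Ratios between cluster mates do not depend on how a library is scaled. Those of miR-182-5p and miR-96-5p to miR-183-5p did not overlap between the groups, a split that 2 against 2 libraries cannot tell from no difference. How often other miRNA pairs split in this way was not analysed here. For miR-182-5p to miR-183-5p the read ratio was 2.63 (exact 95% interval 1.52 to 4.73) and 2.98 (2.07 to 4.35) in the Sham libraries. In the CKD libraries it was 2.13 (1.77 to 2.58) and 1.82 (1.57 to 2.11). Both CKD values lay below both Sham values, while the counting intervals overlapped in every pair of a Sham and a CKD library. The difference in log2 ratio, with 1 read added to each member, was -0.48, against a largest group SD of 0.16 (exact two-sided permutation p = 0.333, adjusted over 3 ratios p = 0.5).

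miR-96-5p to miR-183-5p showed a like difference. This ratio was 0.895 (0.437 to 1.82) and 1.12 (0.720 to 1.75) in Sham, and 0.788 (0.621 to 0.998) and 0.657 (0.544 to 0.793) in CKD. The group values did not overlap, although the counting intervals again did in every pair, and the log2 difference was -0.48 against a largest group SD of 0.22 (exact two-sided permutation p = 0.333, adjusted p = 0.5). Both ratios have miR-183-5p below the line, so they are not independent of each other.

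miR-96-5p and miR-182-5p, in contrast, kept nearly 1 proportion in all libraries. Their read ratio was 0.340 (0.184 to 0.600) and 0.377 (0.263 to 0.533) in Sham, and 0.369 (0.300 to 0.453) and 0.362 (0.304 to 0.428) in CKD. The groups overlapped, and the log2 difference was -0.00 (exact two-sided permutation p = 1). With 1 CPM added to each member in place of 1 read it was -0.30, since 1 CPM is close to the lowest Sham level of miR-96-5p. The counting intervals of the Sham libraries are wide, so a moderate difference in this ratio was not detectable at this depth.

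**Figure D3:**
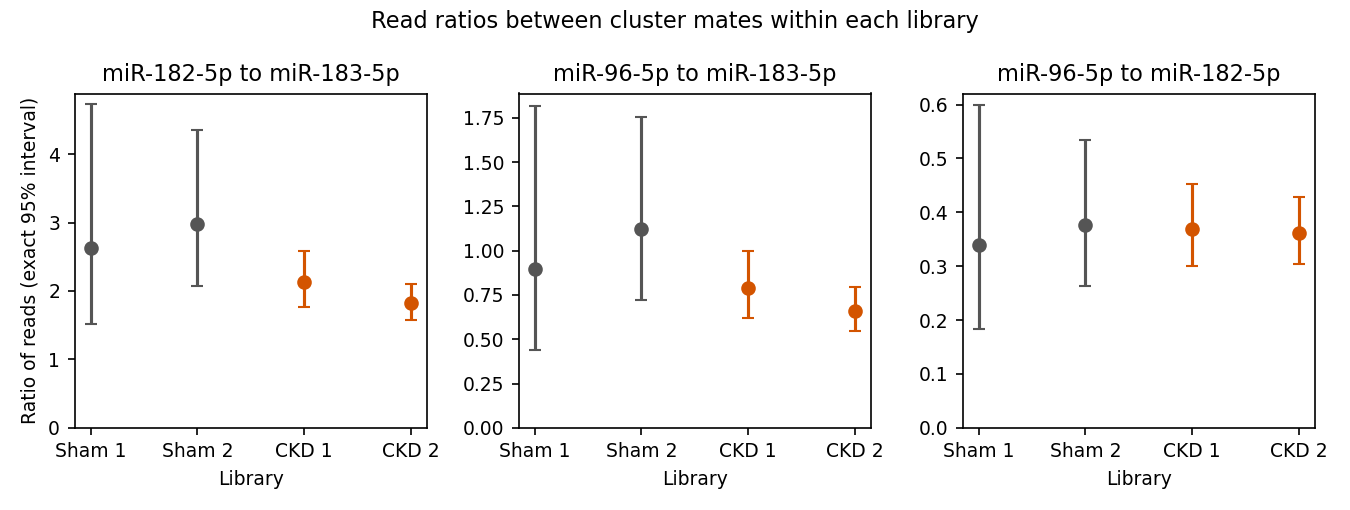
Read ratio between each pair of cluster mates in each library, with exact 95% binomial intervals that cover counting error only; grey points are Sham and orange points CKD. The ratios with miR-183-5p in the denominator are lower in both CKD libraries (2.13 and 1.82 against 2.63 and 2.98 on the left), and the ratio of miR-96-5p to miR-182-5p lies between 0.340 and 0.377 throughout.

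As shares of the cluster's reads, miR-183-5p went from 20.9% ± 1.75 in Sham to 27.1% ± 2.31 in CKD (SD, n = 2), a difference of 6.28 percentage points. The share of miR-182-5p went from 58.3% ± 0.165 to 53.4% ± 1.48 (SD, n = 2), and that of miR-96-5p from 20.9% ± 1.59 to 19.5% ± 0.834 (SD, n = 2). The Sham and CKD libraries did not overlap in the shares of miR-183-5p and miR-182-5p (exact permutation p = 0.333 for each) and overlapped in that of miR-96-5p (exact permutation p = 0.667). For single libraries the share of miR-183-5p was 22.1% (exact 95% interval 13.9 to 32.3) and 19.6% (14.5 to 25.7) in Sham and 25.5% (22.2 to 29.0) and 28.8% (26.0 to 31.7) in CKD. The intervals of the second Sham and second CKD libraries did not overlap, and those of every other Sham and CKD pair did. These intervals cover counting error only.

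For Mir183 and Mir96 the reads came from the 5p arms nearly alone. miR-183-3p, the opposite arm of the Mir183 hairpin, had 0 and 2 reads in Sham and 0 and 5 in CKD, so 98.6% of the 518 reads of this hairpin over all libraries were 5p. For Mir96 the 3p arm had 1 and 0 reads in Sham and 0 and 1 in CKD, and 99.5% of 383 reads were 5p. A count of 0 in the first CKD library allows a 3p share of up to 1.82% for Mir183 and 2.31% for Mir96, and in the first Sham library of up to 15.8% for Mir183. Neither opposite arm reached a mean of 1 CPM, so neither was tested. The 3p arm of Mir182 was not analysed here.

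Other clusters that are transcribed together gave a measure of how far mates differ. Within the miR-183/96/182 cluster the TMM-scaled log2 differences spanned 0.42, from 0.71 to 1.13. Those of the epithelial miR-200b cluster (miR-200b-3p, miR-200a-3p and miR-429-3p) also spanned 0.42, from -0.05 to 0.37. The pair miR-200c-3p and miR-141-3p spanned 0.30 and the pair miR-221-3p and miR-222-3p 0.48, from 0.28 to 0.76. In the pair miR-143-3p and miR-145a-5p, which lie in 1 cluster and were added here after their values were seen, the span was 1.75, from -2.48 to -0.73. The span of the miR-183 cluster on this scale lay between those of the other clusters, from 0.30 to 1.75, which were not tested against it. The 1 CPM added before the log understates differences of low entries, so spans of clusters at unlike levels are not directly comparable. By edgeR with TMM the members lay at 1.42 (miR-183-5p), 0.86 (miR-96-5p) and 0.85 (miR-182-5p). The values for miR-200b-3p, miR-200a-3p and miR-429-3p were 0.35, 0.09 and -0.11.

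Markers of epithelial and neural cells, in which the cluster is also expressed, were present at low levels. All 10 epithelial miRNAs of the list had reads in every library, and their summed level was 151 and 198 CPM in Sham, against 767 and 556 CPM in CKD. Of the 10 tested, 9 rose on the deposited scale, where 82.9% of all tested entries did. With TMM scaling 0 were called by limma (1 with an unadjusted p under 0.05) or edgeR and 1, miR-192-5p, by DESeq2, and their median was 0.25 and their range -0.06 to 0.59. Of all tested entries, limma and edgeR called 7.72% and 6.47% in either direction, DESeq2 called 16.1%, and 25.9% had an unadjusted limma p under 0.05, so the counts of the epithelial, neural, red cell, and lymphocyte and myeloid lists are near or below these shares. The most abundant, miR-194-5p and miR-192-5p, which are also typical of kidney, gut and liver, lay at 0.24 and 0.59. Summed after TMM scaling the list had 315 and 284 CPM in Sham, against 424 and 335 CPM in CKD. On that scale the second library of each group was the lower one for the list and the higher one for the miR-183 cluster. As deposited, the second Sham library was the higher one for the list as well. A part of epithelial cells in the values of the cluster was not tested. With TMM scaling all 3 cluster members lay above the highest epithelial value of 0.59. As deposited, miR-192-5p (2.15) lay above miR-96-5p (1.91).

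Of 10 neural miRNAs, 9 were listed and 7 tested. All 7 rose on the deposited scale, against the 82.9% of all tested entries. With TMM scaling 0 were called by limma (2 with an unadjusted p under 0.05), edgeR or DESeq2, and the median was 0.26. miR-7a-5p lay at 0.15 and miR-9-5p at 0.26. The highest, at 0.85, was miR-124-3p, the main neuronal miRNA, named after its values were seen, with 0.23 and 0.36 CPM in Sham, against 3.65 and 2.34 CPM in CKD. With 4 and 6 reads in Sham, its difference is understated by the 1 CPM added before the log. By edgeR with TMM it lay at 1.78, above all 3 cluster members, and was not called. The summed TMM-scaled level of the list was 182 and 201 CPM in Sham, against 190 and 248 CPM in CKD.

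Summed, the red cell, neural, and lymphocyte and myeloid lists were each higher in the second library of each group on both scales, as the cluster was. The most abundant red cell entries, miR-486a-5p and miR-486b-5p, hold equal values, so they were summed as 1, and lay at 1.65 each with TMM scaling. So counted, the red cell list summed to 219 and 841 CPM in Sham, against 1035 and 4804 CPM in CKD, the same order of libraries as the cluster, and to 458, 1208, 572 and 2894 CPM after TMM scaling, a different order. All 5 red cell entries, that pair included, rose on the deposited scale, as 82.9% of tested entries did, and 0 were called with TMM scaling by limma (also 0 with an unadjusted p under 0.05), edgeR or DESeq2. The list of lymphocyte and myeloid miRNAs, which includes the cells where miR-182 is induced, summed to 1685 and 2089 TMM-scaled CPM in Sham, against 1604 and 1788 in CKD. Of its 8 tested members 7 rose on the deposited scale, again against 82.9%. With TMM scaling 0 were called by limma (2 with an unadjusted p under 0.05) or edgeR and 1, miR-223-3p, by DESeq2, the median was -0.14, and the most abundant, miR-181a-5p and miR-146a-5p, both lay at -0.19. No marker of the epithelial, red cell, or lymphocyte and myeloid lists was at 0 in any library. Their part in the values of the cluster was not tested.

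The remaining lists had TMM-scaled medians near or below 0, apart from the liver miRNA miR-122-5p, at 2.19 with TMM scaling and not called. TMM-scaled levels of miR-122-5p were 2.99 and 36.6 CPM in Sham, against 88.8 and 33.7 CPM in CKD, so the groups overlapped. Adipocyte miRNAs had a TMM-scaled median of -0.22 over 6 members, with miR-378a-3p at 0.46, miR-365-3p at -0.20 and miR-196a-5p called lower at -2.13 (limma adjusted p = 0.020), also by edgeR and DESeq2. On the deposited scale 5 of the 6 rose, as 82.9% of all tested entries did, and miR-196a-5p fell. Striated muscle miRNAs had a median of -0.46 over 4 tested members, with miR-133a-3p at -0.64 and miR-133b-3p at -0.25. Both rose as deposited. After TMM scaling 0 were called by limma (2 with an unadjusted p under 0.05) or edgeR and 1, miR-133a-3p, by DESeq2. Of all tested entries, 25.9% had an unadjusted limma p under 0.05. In either direction limma called 7.72%, edgeR 6.47% and DESeq2 16.1%, and counts among 4 members are too small to set against these shares. The endothelial pair miR-126a-3p and miR-126a-5p lay at 0.05 and 0.11, called by none of the 3 tools, and both rose on the deposited scale. The smooth muscle list, which marks the labelled tissue and held the largest summed level of these lists in every library, had a median of -0.77, with miR-143-3p (-2.48) and miR-145a-5p (-0.73) called lower (limma adjusted p = 0.012 and 0.044). Of its 4 members edgeR called only miR-143-3p lower, with miR-145a-5p at an adjusted p of 0.054, and DESeq2 called all 4, 3 of them lower and miR-145a-3p higher (0.26, and 0.22 by limma). On the deposited scale miR-143-3p also fell, by 0.89, but miR-145a-5p rose by 0.85 (limma adjusted p = 0.0043), so its direction flips with the scaling. There 2 of the 4 rose, 1 fell and miR-143-5p, at 0.77, was not called. miR-145a-3p and miR-143-5p are named after their values were seen.

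The tested entries whose profile over the 4 libraries lay nearest to that of the cluster are described here, 5 being a set number. Levels were taken as deposited, where 91.2% of tested entries had both CKD libraries above both Sham libraries. Likeness was measured as the distance between log2(CPM + 1) profiles, each centred on its own mean, to that of the summed cluster, for which the median over tested entries was 1.43. The 5 nearest were miR-15b-5p (0.27), miR-223-3p (0.42), miR-338-3p (0.49), miR-3968 (0.54) and miR-21a-5p (0.57). The members themselves lay at 0.23 (miR-182-5p), 0.34 (miR-183-5p) and 0.56 (miR-96-5p) from their own sum, which holds them. miR-15b-5p, of the miR-15 and miR-16 family that slows the cell cycle, had 24.8 and 60.2 CPM in Sham, against 149 and 313 CPM in CKD. miR-223-3p, a myeloid miRNA, had 25.6 and 41.2 CPM in Sham, against 147 and 195 CPM in CKD. miR-21a-5p, a miRNA linked to fibrosis, was far more abundant, with 2875 and 4084 CPM in Sham, against 13977 and 18127 CPM in CKD. In TMM-scaled difference the 5 lay between 0.63 and 0.91, and 0 were called by limma (3 with an unadjusted p under 0.05) or edgeR and 3 by DESeq2 (miR-223-3p, miR-3968 and miR-21a-5p), against 25.9% of all tested entries with an unadjusted limma p under 0.05 and 16.1% called by DESeq2. The 5 were picked for a profile that includes the rise in CKD, so their differences and calls follow in part from that choice. With 4 libraries that share their totals, such likeness is a description only.

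**Figure D4:**
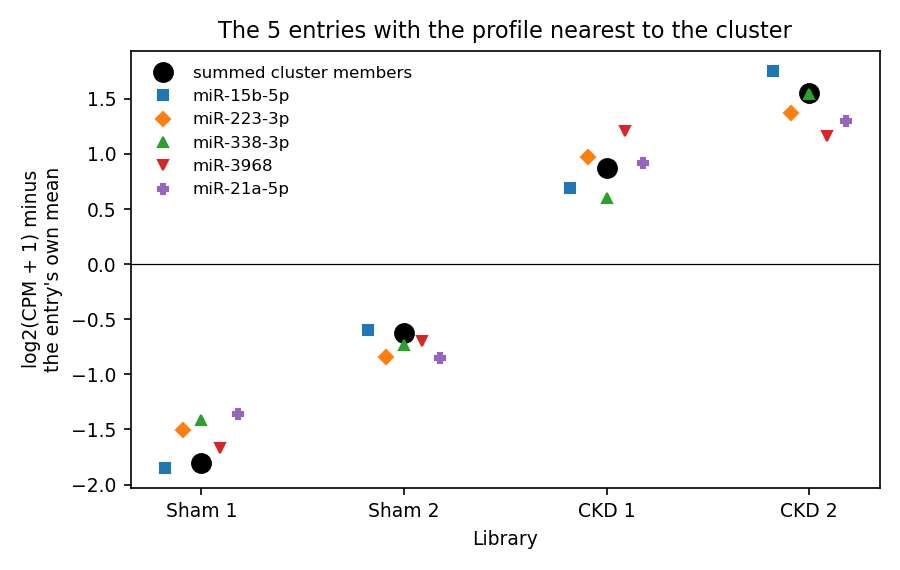
Profiles over the 4 libraries of the summed cluster (large black points) and of the 5 nearest tested entries, as log2(CPM + 1) minus each entry's own mean; points are offset sideways for legibility. All 6 profiles are lowest in the first Sham library, and the first and second CKD libraries lie above both Sham libraries.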

How the data were processed

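The members, lists and tests were chosen with earlier results of these data known. Small RNA was gel-cut, ligated to adaptors at both ends and amplified, per the labels' protocols. Per the submitters' processing notes, Bowtie and GRCm38 were used. The counting, its miRNA annotation and its rule for ambiguous reads are not described in the sources used here. The deposited values sum to about 1000000 per library and were read as CPM made by the authors. In 3 files all names precede all values, so they were paired by order, and the order of names is the same in all 4 files. With a tolerance of 0.005 CPM, 100% of values above 0 in every library came out as whole reads, which gave the totals, and 3 reads corresponded to 0.171 to 0.180 CPM.

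limma (version 3.58.1, R 4.3.3) was fitted on log2(CPM + 1), with a mean-variance trend and group as the only term, for the 479 entries with a mean of at least 1 CPM, all 3 members among them. The adjusted p is Benjamini-Hochberg over these entries (threshold 0.05, two-sided). A second fit used CPM divided by TMM factors from the recovered reads (edgeR 4.0.16): 0.479 and 0.696 in Sham, 1.81 and 1.66 in CKD. Library ratios were compared by exact permutation, and intervals are Clopper-Pearson (SciPy 1.17.1). The limma fits were tested on simulated counts. Named miRNAs are the members, their opposite arms, miRNAs with a member's seed, the 5 nearest profiles, miR-143-3p, and from each list the 2 most abundant and any called with TMM scaling. Alternatives were other pseudocounts, filters, factors and tools (edgeR and DESeq2 1.42.0 on recovered reads), a replicate block and leaving out each library.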

Additional observations from a re-analysis of the deposited data

How the results depend on the processing

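On the deposited scale every alternative kept the 3 members higher and called, except library totals without miR-143-3p, where miR-183-5p (1.34), miR-96-5p (0.91) and miR-182-5p (1.03) were no longer called and 28 entries were, 14 of them higher. The count of 402 entries called was 241 with a mean of at least 10 CPM, where fewer entries are tested and miR-182-5p is the only member left, and ranged from 143 to 392 with each library left out. With TMM scaling no alternative called a member, and each difference stayed above 0. Leaving out each library gave 0.67 to 1.51 for miR-183-5p, 0.36 to 1.09 for miR-96-5p and 0.43 to 1.17 for miR-182-5p. The count of 37 entries called was 21 with no filter, 77 with DESeq2 (28 higher), and 5 to 13 with each library left out, the lone library of a group being assumed to vary as the others. A pseudocount of 10 CPM lowered the TMM-scaled differences by construction, to 0.45, 0.25 and 0.45 (miR-183-5p, miR-96-5p and miR-182-5p).

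Sham and CKD libraries share replicate numbers, but the labels do not say that a number marks a shared batch, and the deviations of same-numbered libraries correlated at 0.12 with TMM scaling. With the replicate number as a block, the deposited scale gave 352 called entries and TMM scaling 10. The members stayed called on the deposited scale and uncalled with TMM scaling (limma adjusted p = 0.083, 0.12 and 0.075 for miR-183-5p, miR-96-5p and miR-182-5p), and the ratio differences were -0.48, -0.48 and -0.00.

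The log2 difference of the ratio of miR-96-5p to miR-182-5p was near 0 and changed sign to 0.027 with nothing added, was -0.30 with 1 CPM added to each member, and lay between -0.059 and 0.056 with each library left out. The ratio of miR-182-5p to miR-183-5p kept its sign, at -0.59 to -0.36 with each library left out and -0.15 with 1 CPM added to each member, and that of miR-96-5p to miR-183-5p was -0.46 with 1 CPM added and lay between -0.63 and -0.32 with each library left out. An addition of 1 CPM is close to the lowest Sham levels, so it moves these ratios by construction. The low reads of the first Sham library (17 to 50 per member) limit these ratios.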
